A study of Mus musculus with 4 samples.

Results

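The mouse mitochondrial genome is a small circular DNA that carries 37 genes in the annotation used here, of which 13 code for proteins, 2 for ribosomal RNAs and 22 for transfer RNAs. Members are the genes of the count table whose symbol starts with mt-, a rule by name that uses no measured value. The rule found 13 of the 36144 names in the table, and all 13 were the protein genes. The ribosomal and transfer RNA genes were not analysed here. All 13 exceeded 10 counts in 2 or more libraries and so passed the filter on low counts.

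Bulk RNA-seq was done on mouse colonic organoids (colonoids), which are epithelial cultures grown in Matrigel from colonic crypts. There were 4 libraries: untreated colonoids and colonoids in 2 mM sodium butyrate, each taken at 48 h or 72 h (Day 2 and Day 3 in the labels), with 1 library per condition. All 4 conditions shared the genotype label WT, the source (colon of a male mouse aged 24 weeks) and the complete crypt medium with EGF, Noggin, R-spondin, CHIR99021 and Y-27632. The legend in the study names a Hes1-GFP mouse, so the genotype is given differently in the labels and in the legend. With 1 library per condition no test was run, and every interval below is an exact Clopper-Pearson 95% interval that covers counting error only, not the spread between cultures. A gene is called higher or lower here when the larger of its normalised counts in the 2 libraries compared exceeded the smaller by at least 25%. The question was how butyrate, and time in culture, moved the RNAs of the mitochondrial genome.

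Mitochondrial DNA is transcribed from both strands into long precursor RNAs, in which transfer RNAs lie between most of the protein genes and mark where the precursor is cut. Most of the released mRNAs receive poly(A) tails. The 13 protein genes code for core subunits of the respiratory chain or of ATP synthase. These complexes couple the oxidation of fuel to ATP synthesis. The remaining subunits of these complexes are made from nuclear genes. Butyrate is a main fuel of colonocytes, oxidised in their mitochondria, and is also an inhibitor of histone deacetylases.

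The libraries held 20790225 to 24207840 counts. Epithelial markers were present in each library, with 6 of 6 above a mean normalised count of 50 and a summed level of 6105 to 6725 CPM (counts scaled to one common library total). Markers of other cells were low: the summed level of 7 stromal markers was 3.32 to 5.22 CPM, with Col3a1 and Lum at 0 in every library, and that of 4 markers of glia and neurons was 1.90 to 3.46 CPM, with Sox10 and S100b at 0. The 8 immune markers summed to 8.62 CPM (untreated) and 56.0 CPM (butyrate) at 48 h, then to 10.1 and 23.4 CPM, with Adgre1 at 0 throughout. Most of that rise was in Cd68, a lysosomal protein of macrophages and other cells, at 128, 1309, 172 and 420 counts in the same order.

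The 13 genes took a large part of each library, smaller with butyrate at both times and larger at 72 h than at 48 h. Their summed counts were 3263220 in untreated colonoids at 48 h, 3405673 with butyrate at 48 h, 4331311 untreated at 72 h and 3388219 with butyrate at 72 h. As a share of the library this was 15.1% (interval 15.115% to 15.145%), 14.1% (14.055% to 14.082%), 18.4% (18.354% to 18.385%) and 16.3% (16.281% to 16.313%). The 4 shares did not overlap within counting error. After normalisation the sum was 0.11 lower on the log2 scale with butyrate at 48 h and 0.22 lower at 72 h, and it was 0.36 higher at 72 h than at 48 h without butyrate and 0.24 higher with it. In bulk RNA fewer mitochondrion-rich cells and less mitochondrial RNA per cell cannot be told apart.

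The sequences shown first are those that bear on how reads could be counted for single genes, because the genes lie end to end and some overlap. The reading frames of mt-Atp8 and mt-Atp6 share 43 bases (chrM:7927-7969), those of mt-Nd4l and mt-Nd4 share 7 (chrM:10167-10173), and those of mt-Nd5 and mt-Nd6, on opposite strands, share 14 (chrM:13552-13565). The annotated mt-Atp6 and mt-Co3 also share 1 base (chrM:8607), which is not shown. Below, on the plus strand of GRCm38 from GENCODE transcripts, the shared bases are in capitals, with 10 bases on either side.
mt-Atp8/mt-Atp6 overlap (chrM:7917-7979): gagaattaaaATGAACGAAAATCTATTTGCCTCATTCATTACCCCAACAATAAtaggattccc
mt-Nd4l/mt-Nd4 overlap (chrM:10157-10183): acctactacaATGCTAAaaattattct

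Within the overlap, the first capitals ATG are the start codon of the downstream gene and the last capitals TAA are the stop codon of the upstream one. A read that lies within the shared stretch belongs to both genes of the pair.

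The 3′ ends also differ between genes. In mt-Co3, mt-Nd4 and mt-Cytb the annotated gene stops 1 base past the last whole codon, on a lone T, and the stop codon is completed by the poly(A) tail. In the others the stop codon is encoded. The ends of the 2 genes that lie farthest apart on the heavy-strand transcript, and that moved most differently at 48 h, are given here with the stop codon or the lone base in capitals.
mt-Nd1 3′ end (chrM:3678-3707): tttacagcgggagtaccaccatacataTAG
mt-Cytb 3′ end (chrM:15261-15288): gaagacaaaatactaaaattatatccaT

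The 3 genes with an incomplete stop codon did not move alike with butyrate: at 48 h the log2 changes were -0.04 for mt-Co3, -0.23 for mt-Nd4 and -0.59 for mt-Cytb.

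**Figure D1:**
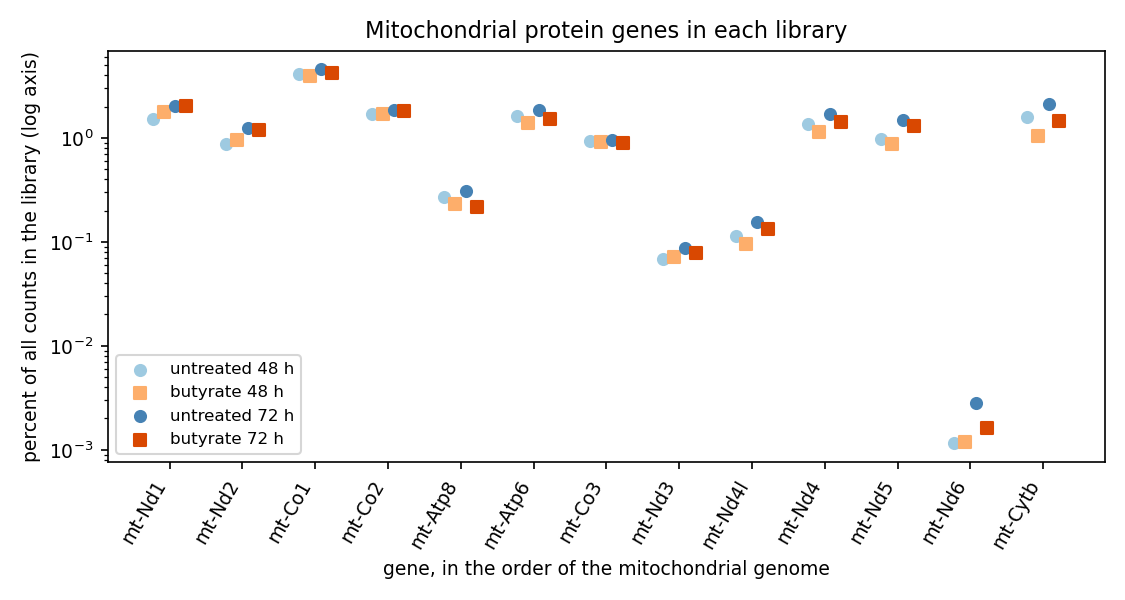
Percent of all counts in each library (vertical, log axis) for the 13 mitochondrial protein genes in genome order (horizontal). Each symbol is 1 library; mt-Co1 was highest in all 4 libraries (3.90% to 4.55%) and mt-Nd6 lowest (0.00115% to 0.00280%).

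These genes were among the most abundant RNAs of the colonoids. Of the 20 genes with the most counts, 10 were mitochondrial in each untreated library and 9 in each butyrate library. mt-Co1, which codes for the catalytic subunit of cytochrome c oxidase, ranked first of all genes in every library. Compared per kilobase of gene (CPM per kb), mt-Co1, mt-Co2 and mt-Atp6 were the 3 highest in each library and mt-Nd1 was 4th. At the other end, mt-Nd5, mt-Nd4l, mt-Nd3 and mt-Nd6 came 10th, 11th, 12th and 13th in every library. The whole annotated length was used, with no allowance for fragment length, and the part of gene length in these ranks was not tested. The genes in between changed places: mt-Cytb was 5th of 13 in 3 libraries and 8th in butyrate at 48 h, mt-Atp8 was 6th in 3 libraries and 8th in butyrate at 72 h, and mt-Nd2 was 9th in both untreated libraries and 7th and 6th with butyrate. The highest level per kb was 1212, 1113, 546 and 869 times the lowest in untreated and butyrate colonoids at 48 h and in untreated and butyrate colonoids at 72 h. The lowest was mt-Nd6 throughout, the only protein gene on the opposite strand, whose mRNA in mammals carries little or no poly(A) tail. The libraries were made by poly-A pulldown, and the part of tail length in these levels was not tested.

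With butyrate at 48 h, the 13 genes fell on both sides of 0, and only mt-Cytb passed 25%. There were 8 lower and 5 higher at any size (mt-Co2, the smallest of these, turned from 0.01 to just below 0 under scaling by non-mitochondrial totals), with a median log2 change of -0.09, against -0.03 over the 11652 genes whose mean normalised count reached 50. Of the 13, 1 was called lower, against 18.8% of all genes, and 0 were called higher, against 18.3%. At 72 h all 13 were lower (all but mt-Nd1 when scaled by total counts), with a median log2 change of -0.23 against 0.00 over all genes. Of these, 4 were called lower (mt-Cytb, mt-Nd6, mt-Atp8 and mt-Atp6) against 14.1% of all genes, and 0 were called higher against 14%. mt-Atp6 lost its call when scaled by total counts (-0.28) or by non-mitochondrial totals (-0.32).

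mt-Cytb codes for cytochrome b, the only subunit of complex III (cytochrome bc1) that is made from mitochondrial DNA. It held 1.57% (untreated) and 1.05% (butyrate) of the 48 h libraries, then 2.12% and 1.46% of those at 72 h. It was lower with butyrate at both times, and the butyrate library at 72 h was also below the untreated library at 48 h. The log2 change was -0.59 (interval -0.60 to -0.58) at 48 h and -0.60 (-0.60 to -0.59) at 72 h. Set against the other mitochondrial genes, which needs no scaling between libraries, mt-Cytb made up 10.4% of the mitochondrial counts at 48 h and 7.45% with butyrate, and 11.6% and 8.94% at 72 h. Its count relative to that of mt-Nd1 was 1.03 and 0.595 at 48 h and 1.05 and 0.717 at 72 h. Relative to that of mt-Nd5 it fell less, at 1.61 and 1.21 at 48 h and 1.43 and 1.11 at 72 h. Without mt-Cytb the summed change was -0.07 at 48 h in place of -0.11, and -0.18 at 72 h in place of -0.22, an alternative chosen after seeing the data.

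Complex V (ATP synthase) has 2 subunits from mitochondrial DNA, and both genes were lower at each time. mt-Atp6, which forms the proton channel, held 1.64% and 1.38% of the untreated and butyrate libraries at 48 h, then 1.86% and 1.53% at 72 h. Its 48 h log2 change was -0.25 (-0.26 to -0.24), and the 72 h one -0.34 (-0.34 to -0.33). mt-Atp8, a small membrane subunit, held 0.273% and 0.229% at 48 h and 0.308% and 0.214% at 72 h, with log2 changes of -0.26 (-0.28 to -0.24) and -0.58 (-0.59 to -0.56). The pair moved by a like amount at 48 h and less evenly at 72 h: the counts of mt-Atp6 were 5.998, 6.05, 6.05 and 7.15 times those of mt-Atp8 in untreated and butyrate at 48 h and untreated and butyrate at 72 h. Since the pair shares the 43 bases printed above, how reads there were split between them was not tested.

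Complex I (NADH dehydrogenase) has 7 subunits from mitochondrial DNA, and they did not move together at 48 h. mt-Nd1 held 1.53% (untreated) and 1.76% (butyrate) of the 48 h libraries, then 2.02% and 2.03% of those at 72 h. mt-Nd2 held 0.866% and 0.953%, then 1.248% and 1.20%. Both code for subunits of the proton-pumping membrane arm, and both were higher with butyrate at 48 h, by log2 changes of 0.20 (0.20 to 0.21) and 0.13 (0.12 to 0.14), neither past 25%. At 72 h their log2 changes were -0.05 and -0.11, and that of mt-Nd1 was 0.01 when scaled by total counts.

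mt-Nd4, mt-Nd4l and mt-Nd5, further subunits of the membrane arm, were below the untreated library at both times. mt-Nd4 held 1.34% and 1.15% of the libraries at 48 h and 1.70% and 1.43% at 72 h, with log2 changes of -0.23 and -0.30. mt-Nd5 held 0.977% and 0.866% at 48 h and 1.48% and 1.31% at 72 h, with log2 changes of -0.18 and -0.23. mt-Nd4l, the shortest of the complex I genes, showed -0.28 (-0.30 to -0.25) and -0.30 (-0.32 to -0.27). None of the 3 was past 25%, and all had intervals below 0 at both times.

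mt-Nd3 moved by 0.05 (0.02 to 0.08) at 48 h and -0.20 (-0.23 to -0.17) at 72 h. mt-Nd6 received 248 (untreated) and 285 (butyrate) counts at 48 h, then 660 and 337 at 72 h. It stood highest in the untreated library at 72 h. Its log2 change was 0.03 (-0.22 to 0.28) at 48 h, which was not detectable at this depth, and -0.84 (-1.03 to -0.65) at 72 h. Whether strand was kept in the counting is not given in the sources used here, so reads of mt-Nd6 and of the transcript opposite to it cannot be told apart. Summed over the 7 complex I genes, the 48 h libraries held the same share, 4.90%, without and with butyrate, while at 72 h the shares were 6.70% and 6.18%.

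Complex IV (cytochrome c oxidase) has 3 subunits from mitochondrial DNA, and their genes moved within a narrow range. mt-Co1 held 4.15% and 3.90% of the libraries at 48 h and 4.55% and 4.19% at 72 h, with log2 changes of -0.09 and -0.17. mt-Co2, which holds the copper site that receives electrons from cytochrome c, showed 0.01 (0.01 to 0.02) and -0.08 (-0.09 to -0.07), and mt-Co3 showed -0.04 and -0.15. None passed 25% in any of the 4 comparisons. Summed, the 3 genes were 0.06 lower at 48 h and 0.14 lower at 72 h on the log2 scale.

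**Figure D2:**
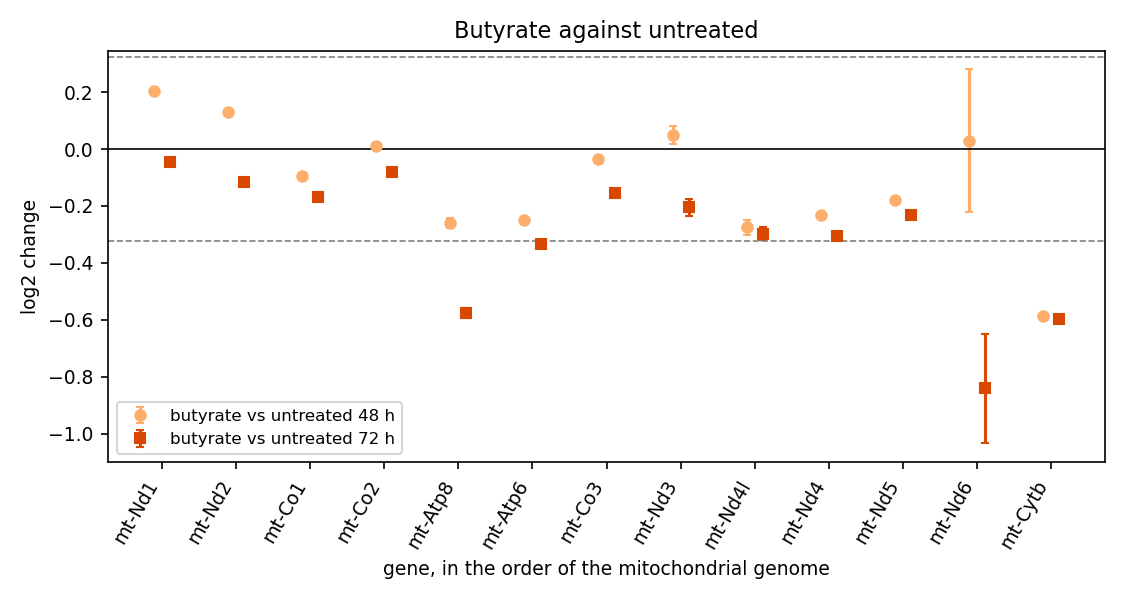
Log2 change of the normalised count, butyrate against untreated (vertical), for the 13 genes in genome order (horizontal), at 48 h (circles) and 72 h (squares). Bars are exact 95% counting intervals and dashed lines mark the 25% threshold; mt-Cytb lies below the lower line at both times (-0.59 and -0.60).

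Along the genome, the 48 h change ran from mt-Nd1, nearest to the ribosomal RNA genes, to mt-Cytb, farthest from them. Over the 12 genes on the plus strand of the annotation, the log2 change at 48 h and the distance from the start of mt-Rnr1 had a Pearson r of -0.81 and a Spearman rho of -0.66 (n = 12 genes). At 72 h these were -0.64 and -0.68. Without mt-Cytb, the gene farthest out, r was -0.69 at 48 h and -0.46 at 72 h. For 72 h against 48 h, r was 0.22 in untreated and 0.47 in butyrate colonoids. For the same 4 comparisons gene length gave r of -0.05, 0.19, 0.33 and 0.49, GC content gave -0.15, 0.26, 0.01 and 0.38, and the share of 31-base words held by a nuclear copy gave 0.07, 0.24, -0.48 and -0.27. Without mt-Cytb, GC content gave 0.01 at 48 h and 0.51 at 72 h for butyrate, so at 72 h its r was no smaller in size than that of distance. These values describe 12 genes of 1 DNA molecule in the same libraries, which are not independent of each other, and the 48 h and 72 h values come from different libraries.

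**Figure D3:**
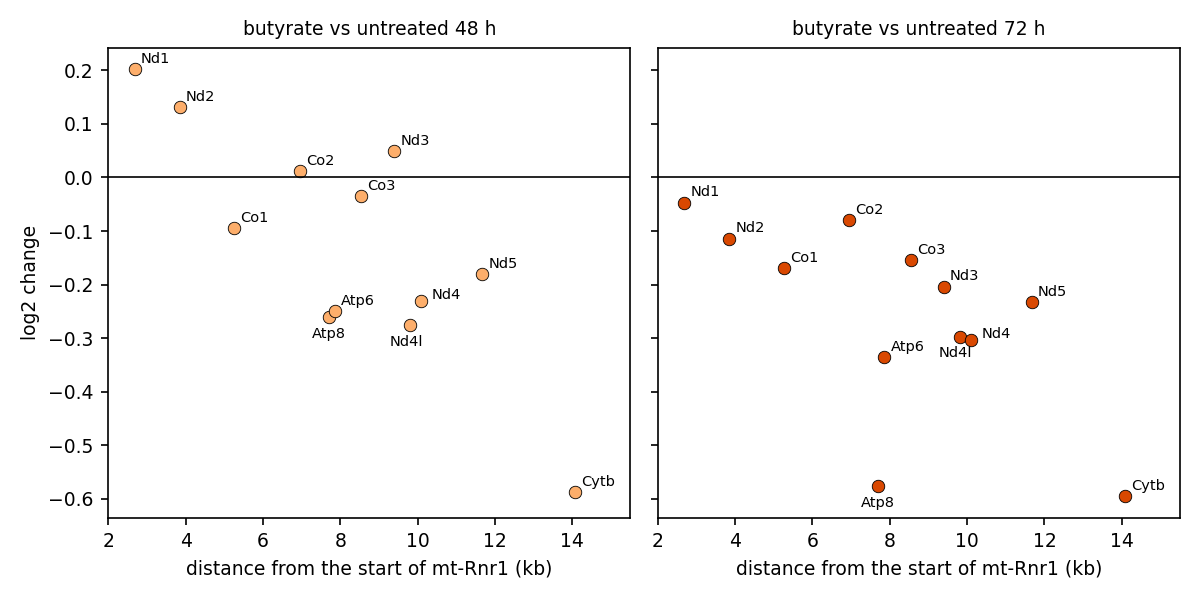
Log2 change of the normalised count, butyrate against untreated (vertical), against distance from the start of mt-Rnr1 in kb (horizontal) for the 12 genes on the plus strand, at 48 h (left) and 72 h (right). Each point is 1 gene, named without its mt- prefix; mt-Nd1 (0.20) and mt-Cytb (-0.59) lie at the ends at 48 h.

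Nearly all of the genes stood higher at 72 h than at 48 h. In untreated colonoids all 13 were higher at 72 h, with a median log2 change of 0.42 against 0.00 over all genes. Of the 13, 8 were called higher (the 7 complex I genes and mt-Cytb) against 9.53% of all genes, and 0 were called lower against 10.1%. With butyrate 12 of 13 were higher at 72 h (mt-Co3, at 0.02, was at -0.01 when scaled by total counts), with a median of 0.24 against -0.01. Of these, 6 were called higher (mt-Nd2, mt-Nd4l, mt-Nd4, mt-Nd5, mt-Nd6 and mt-Cytb) against 18.1% of all genes, and 0 were called lower against 19.8%. Scaled by total counts, mt-Nd4 was at 0.31 and fell short, which left 5. These comparisons share their libraries with those of butyrate against untreated, so the values are not separate evidence.

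By complex, the sum of the complex I genes was 0.53 higher at 72 h in untreated and 0.37 higher in butyrate colonoids on the log2 scale, while the complex IV sum was 0.20 and 0.12 higher and the complex V sum 0.27 and 0.15 higher. mt-Cytb was 0.51 higher in both. mt-Nd5 was 0.68 and 0.63 higher, and mt-Nd6 was 1.36 (1.15 to 1.58) and 0.49 (0.26 to 0.73) higher. mt-Atp8 was 0.25 higher in untreated colonoids and 0.06 lower with butyrate. Among the mitochondrial counts alone, mt-Co1 went from 27.4% to 24.8% in untreated and from 27.7% to 25.7% in butyrate colonoids, while mt-Nd5 went from 6.46% to 8.08% and from 6.16% to 8.03%.

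**Figure D4:**
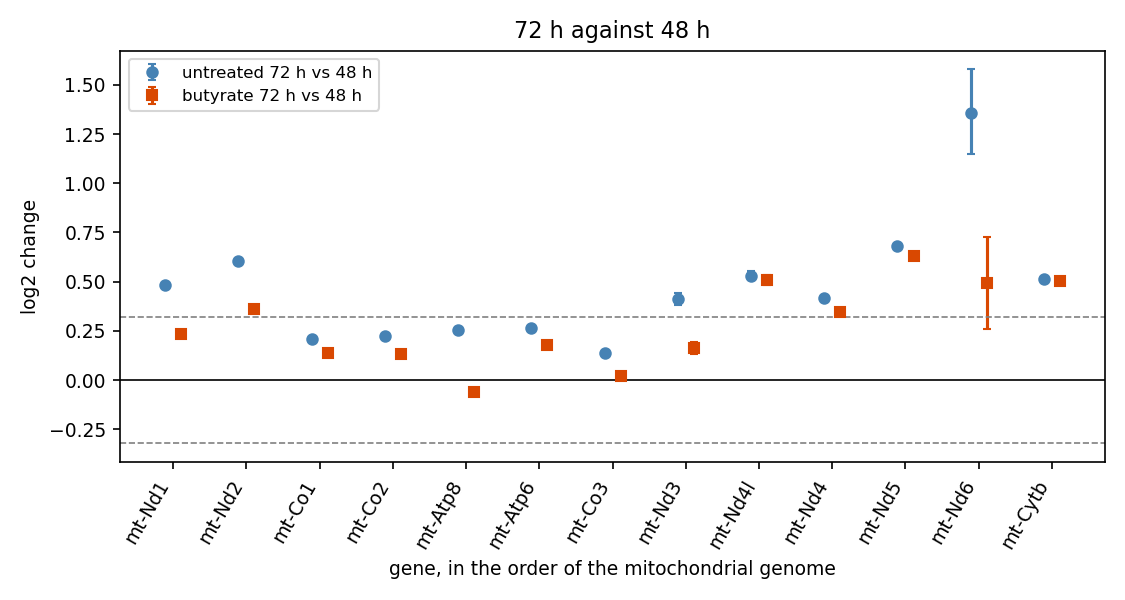
Log2 change of the normalised count, 72 h against 48 h (vertical), for the 13 genes in genome order (horizontal), in untreated (circles) and butyrate (squares) colonoids. Bars are exact 95% counting intervals and dashed lines mark the 25% threshold; mt-Atp8 with butyrate (-0.06) is the only value below 0.

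Part of the mitochondrial genome has a near-identical copy in the nucleus, and reads from the shared bases fit both. By sequence, 7 annotated pseudogenes on chromosome 1, on the minus strand between 24611535 and 24616197, shared at least 90% of their 31-base words with a mitochondrial gene. These were Gm29216 (a copy of part of mt-Co1), Gm28661 (mt-Co2), Gm10925 (mt-Atp6), Gm28437 (mt-Co3), Gm28438 (mt-Nd3), Gm10222 (mt-Nd4l) and Gm28439 (part of mt-Nd4). Over the bases they cover, the last 6 of these differ little or not at all from their mitochondrial gene. Gm28438 differs by T3C, counted from base 1 of mt-Nd3 with the mitochondrial base first, and the others by no base. Gm28439 covers only bases 1 to 876 of mt-Nd4, which is 1378 bases long. Gm29216 matches bases 1054 to 1545 of mt-Co1 except for T1056A, C1057T, A1059G, A1060G, C1062A and A1066T. The first bases of that stretch are shown in both, read along mt-Co1, with the differing bases in capitals.
mt-Co1 (chrM:6381-6441, plus strand): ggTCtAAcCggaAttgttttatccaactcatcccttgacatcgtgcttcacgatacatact
Gm29216 (chr1:24616137-24616197, minus strand): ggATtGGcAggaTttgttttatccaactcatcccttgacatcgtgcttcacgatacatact

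The 6 differences lie in the first bases of the copy, and the rest of its 492 bases is the same as in mt-Co1. Gm29216 was given 87253, 111029, 100960 and 95185 counts in untreated and butyrate at 48 h and untreated and butyrate at 72 h, which was 8.89%, 10.5%, 8.61% and 9.84% of the pair with mt-Co1. Its log2 change with butyrate was 0.18 at 48 h and 0.04 at 72 h, where mt-Co1 was below 0. Gm28439 was given 6370, 1715, 19049 and 8177 counts in the same order, 2.15%, 0.613%, 4.54% and 2.68% of the pair with mt-Nd4, and its log2 changes were -2.06 and -1.09. All 846 of its 31-base words are shared with mt-Nd4, and how reads were split within the pair was not tested. The other copies had between 0 and 16 counts in each library.

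With the copies' counts added, an alternative chosen after seeing the data, the log2 change of mt-Co1 was -0.07 at 48 h and -0.15 at 72 h, and that of mt-Nd4 was -0.25 and -0.33. At 72 h mt-Nd4 then passed 25%, which made 5 genes called lower in place of 4. mt-Cytb, mt-Nd1, mt-Nd2, mt-Atp8, mt-Nd5 and mt-Nd6 have no copy this close. A further nuclear gene, Gm20594 on chromosome 6, shares 42 of its 419 31-base words with mt-Rnr2, and had 4336, 5165, 7339 and 9241 counts. It falls outside the rule for named genes and was chosen after its values were seen.

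The nuclear genes whose products join the same complexes are given by list, beside the 13. At 48 h their median log2 changes were near 0: 0.04 for 36 genes of complex I, 0.07 for 9 of complex III, -0.01 for 10 of complex IV and 0.02 for 15 of complex V. At 72 h the medians were -0.12, -0.12, -0.21 and -0.11, and 29 of 36, 7 of 9, 10 of 10 and 14 of 15 were lower. Called lower at 72 h were 5 of 36, 2 of 9, 1 of 10 and 1 of 15, against 14.1% of all genes, and 0 were called higher. At the 2 times the complex I genes Ndufa3 and Ndufa8 were at -0.17 and -0.39 and at -0.13 and -0.34, the complex IV genes Cox5b and Cox8a at -0.23 and -0.29 and at -0.10 and -0.29, and the complex V genes Atp5e and Atp5c1 at 0.12 and 0.21 and at -0.11 and -0.20. The interval of Atp5e at 48 h includes 0. From 48 h to 72 h in untreated colonoids, where all 13 mitochondrial genes were higher, the nuclear medians were -0.06, -0.06, -0.04 and -0.05. With butyrate they were -0.24, -0.20, -0.23 and -0.14, and 12 of 36, 3 of 9, 3 of 10 and 2 of 15 were called lower, against 19.8% of all genes. Complex III also differed in its parts: where mt-Cytb was at -0.59 and -0.60, the nuclear subunit genes Uqcrb and Cyc1, the gene of cytochrome c1, were at -0.20 and 0.07 at 48 h and -0.42 and 0.09 at 72 h.

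Lists of genes that make or handle mitochondrial RNA had medians near 0. For the 9 of 10 genes of mitochondrial transcription whose mean normalised count reached 50 these were 0.06 and 0.08 at the 2 times. In that list 4 of 9 were called higher at 48 h, against 18.3% of all genes, and 3 of 9 at 72 h, against 14%, and 0 were called lower. Among them, Mterf2 and Mterf1a, of the family of mitochondrial transcription termination factors, were low (54, 103, 54 and 100 counts, and 84, 128, 52 and 71 counts) and higher with butyrate by 0.75 and 0.43 at 48 h and 1.00 and 0.57 at 72 h. Other members of the family had values below 0 at 48 h: Mterf3 was at -0.31, Mterf4 at -0.11 with an interval that includes 0, and Mterf1b, the gene left out for its low count, at -1.05, all 3 named after their values were seen. Mterf1b had 47, 25, 26 and 26 counts, and whether it shares reads with Mterf1a was not tested. The 13 genes of RNA processing had medians of 0.06 and -0.05. In that list Fastkd1 was at -0.06 and -0.53, and Fastkd5, which is needed for cutting precursors where no transfer RNA lies, was at 0.38 and 0.18. The intervals of Fastkd1 at 48 h and of Fastkd5 at 72 h include 0.

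The 7 genes of mitochondrial RNA stability and decay had medians of 0.09 and 0.04. Lrpprc, which binds and stabilises mitochondrial mRNAs, had 2448, 3674, 2502 and 2354 counts and was at 0.41 (0.34 to 0.49) at 48 h and 0.04 (-0.04 to 0.12) at 72 h. Rexo2, a nuclease of short RNAs, was at -0.05, with an interval that includes 0, and -0.39. The 11 genes of mitochondrial DNA replication had medians of 0.01 and 0.00. Polg, the catalytic subunit of the mitochondrial DNA polymerase, had 1153, 865, 1085 and 953 counts and was at -0.59 (-0.72 to -0.46) at 48 h and -0.06 (-0.18 to 0.07) at 72 h, and its partner Polg2 was at -0.26 and -0.23 with intervals that include 0.

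Genes of mitochondrial translation had positive medians at 48 h. Of 78 genes of the mitochondrial ribosome 64 were higher at any size, with a median of 0.19, where 5463 of all 11652 genes were higher. Of these, 17 of 78 were called higher, against 18.3% of all genes, and 0 were called lower, against 18.8%. At 72 h the median was 0.02, with 1 called higher (14% of all genes) and 4 lower (14.1%). Mrpl23 (96, 175, 90 and 94 counts) was at 0.69 and 0.19, the latter with an interval that includes 0, and Mrpl1 at 0.49 and 0.36. The 10 translation factors had medians of 0.18 and 0.06, with 4 called higher and 1 lower at 48 h and 0 higher and 1 lower at 72 h. Of these, Tufm, the mitochondrial elongation factor Tu, was at 0.59 and 0.16, and Mtrf1l, a release factor, at -0.62 and -0.19. The interval of Mtrf1l at 72 h includes 0.

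A further list held 13 genes of other mitochondrial proteins, of import, pores and folding among them. Its median was 0.19 at 48 h, with 12 higher, 4 of them called (18.3% of all genes), and 0.01 at 72 h. Tomm20, of the import receptor of the outer membrane, had 2537, 4866, 2640 and 2895 counts and was at 0.77 and 0.26, and Tomm70a was at 0.59 and 0.07. The 8 nuclear regulators had medians of 0.00 and 0.11, and Pprc1, a coactivator of the PGC-1 family, was at 0.13 and 0.16. The 13 genes of the mitochondrial stress response had medians of 0.02 and 0.01. In this list Gdf15, a secreted stress cytokine, was at 0.95 and 0.79, and Atf5, a transcription factor of the mitochondrial unfolded protein response, was at -1.30 and -0.23.

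**Figure D5:**
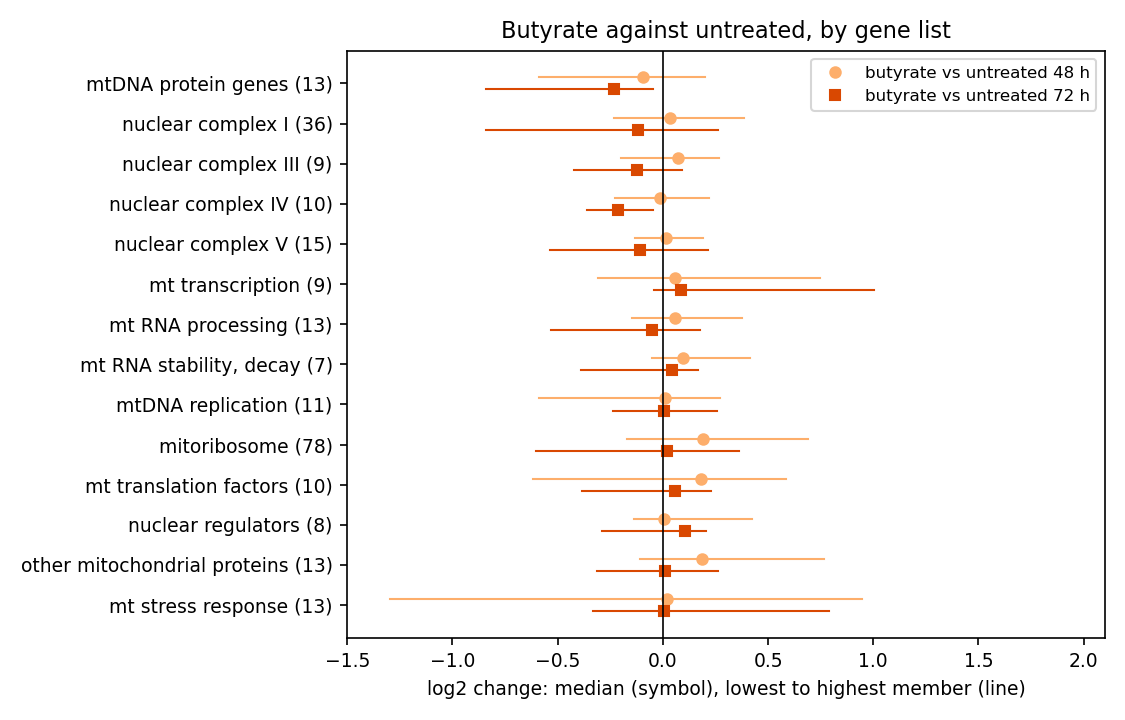
Median log2 change, butyrate against untreated (horizontal), of the 13 mitochondrial protein genes and of nuclear gene lists (vertical, with the number of genes), at 48 h (circles) and 72 h (squares). Lines run from the lowest to the highest gene; the mitochondrial ribosome list is at 0.19 at 48 h, where the mitochondrial genes are at -0.09.

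Cell type markers moved over the same libraries, and their part in the mitochondrial values was not tested. The 8 colonocyte markers, summed, were at 1508, 2967, 2171 and 1392 CPM in untreated and butyrate at 48 h and untreated and butyrate at 72 h, with a median log2 change with butyrate of 0.85 and -0.39. At 48 h 5 of 8 were called higher, against 18.3% of all genes, and 0 lower. At 72 h 5 of 8 were called lower, against 14.1% of all genes, among them Car1, a carbonic anhydrase (1.14 and -0.88), and 1 was called higher, Ceacam20 (0.99 and 0.70). Aqp8, a water channel, had intervals that include 0 at both times. The 6 goblet cell markers summed to 4343, 3518, 6376 and 3505 CPM, with medians of -0.21 and -0.99, with 3 lower and 3 higher at 48 h and all 6 lower at 72 h. Muc2, the main secreted mucin of the colon, was at -0.49 and -0.87, Zg16 at -0.67 and -2.53 and Tff3, a trefoil peptide, at 0.77 and -0.65.

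Of 5 stem cell markers, which summed to 825.5, 604.5, 547.5 and 927.6 CPM, 4 reached a mean normalised count of 50, with medians of -0.22 and 0.66 at the 2 times. Lower at 48 h were 3 of these 4, among them Lgr5 (-0.94 and 0.79), while Ascl2 was at 0.19 and 0.47, and all 4 were higher at 72 h. Car1, Aqp8, Tff3 and Lgr5 fall outside the rule for named genes and were chosen after their values were seen. The 6 proliferation genes had medians of 0.03 and 0.40, with Top2a at 0.22 and 0.48 and Mki67 at 0.06 and 0.45. The epithelial genes Vil1 and Epcam were at -0.23 and -0.05 at 48 h and -0.28 and -0.14 at 72 h, with a list median of 0.01 and -0.16. At 48 h 3 of the 6 were higher and 3 lower, and at 72 h 1 was higher and 5 lower, none past 25%. The stromal gene Pdgfrb had 80, 68, 105 and 55 counts. Markers of endothelium summed to at most 2.29 CPM and those of smooth muscle to at most 0.578 CPM.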

How the data were processed

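RNA-seq was made by poly-A pulldown and Illumina TruSeq chemistry from 4 colonoid libraries. Reads were quantified by the authors by pseudoalignment (kallisto 0.44.0 and GRCm38.p6 in the submitters' processing notes) with gene sums made by tximport. The deposited whole-number counts are rounded estimates, neither normalised nor filtered. Kallisto shares reads between transcripts that hold the same bases, which bears on the nuclear copies and on overlapping genes. All 4 columns of the table were matched to samples by the names in the labels.

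Groups came from the labels. From the counts, median-ratio size factors were computed with DESeq2 1.42.0 in R 4.3.3 over the 13979 genes that exceeded 10 counts in 2 or more libraries. Log2 changes are of normalised counts plus a pseudocount of 1, on which scale changes of low genes are understated. Intervals are exact Clopper-Pearson intervals at 95% on the pair of counts or on the share. There were no molecular identifiers, so reads are not independent molecules. Background shares are over the 11652 genes whose mean normalised count reached 50. Copies were found as nuclear genes sharing at least 90% of their 31-base words with a mitochondrial gene in GENCODE transcripts of GRCm38. Python 3.11.15 was used for all other steps.

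The genes named were the 13 members, the 7 near-identical copies (those that passed the same filter with their changes), and, from each nuclear list, the 2 genes with the largest mean change among those of one direction at 48 h and 72 h and a mean normalised count from 50 up, with exceptions stated where they are named. The members and lists were chosen with earlier results of these data known. A further marker list is not reported here. Other scalings (total counts, TMM from edgeR, factors without mitochondrial genes, non-mitochondrial totals), a pseudocount of 5, no filter and a 50% threshold were tried. Fold changes and intervals were tested on simulated counts that held counting error only, the error that the intervals assume. That test cannot speak to the spread between cultures.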

Additional observations from a re-analysis of the deposited data

Results flagged for a closer look

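Some genes moved in opposite directions with butyrate at the 2 times, with counting intervals away from 0 at both. The difference between times was not tested in any of them, since there was 1 library per condition. The log2 change at 72 h minus that at 48 h was -0.25 for mt-Nd1 (0.20 at 48 h and -0.05 at 72 h), -0.25 for mt-Nd2 (0.13 and -0.11), -0.25 for mt-Nd3 (0.05 and -0.20) and -0.09 for mt-Co2 (0.01 and -0.08). For 2 of these the direction depends on the scaling: mt-Co2 at 48 h was at 0.003 under TMM and -0.0001 under non-mitochondrial totals, and mt-Nd1 at 72 h was at 0.005 under total counts. mt-Atp8 was higher at 72 h than at 48 h in untreated colonoids (0.25) and was lower with butyrate (-0.06), a difference of -0.32.

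Among the nuclear lists, the median log2 change of the colonocyte markers was 0.85 at 48 h and -0.39 at 72 h (a difference of -1.24), that of the stem cell markers -0.22 and 0.66 (0.89), and that of the nuclear complex III genes 0.07 and -0.12 (-0.20).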

How the results depend on the processing

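No result turned its direction when called, and the cause of each shift below was not tested. With the nuclear copies added, the mitochondrial share was 15.56% and 14.53% at 48 h without and with butyrate, and 18.88% and 16.79% at 72 h. The summed log2 change for butyrate at 48 h was -0.105 under total count scaling, -0.119 under TMM, -0.123 under non-mitochondrial totals, -0.118 with no filter, -0.105 with copies and -0.065 without mt-Cytb. The median was -0.088, -0.103, -0.106 and -0.101 under the first 4 of these and -0.068 with copies. For butyrate at 72 h the sum was -0.173 under total counts, -0.209 under non-mitochondrial totals, -0.229 with no filter, -0.221 with copies and -0.183 without mt-Cytb, and the median was -0.181 and -0.217 under the first 2. For untreated colonoids over time the sum was 0.280 under total counts, 0.355 under TMM, 0.336 under non-mitochondrial totals, 0.354 with no filter and 0.339 without mt-Cytb, and the median was 0.340 under total counts, 0.396 under non-mitochondrial totals and 0.453 with copies. With butyrate over time the sum was 0.212 under total counts, 0.249 under TMM, 0.250 under non-mitochondrial totals, 0.240 with copies and 0.221 without mt-Cytb, and the median 0.203 under total counts.

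At a 50% threshold, 2 of 13 were called lower with butyrate at 72 h (5.13% of all genes), and over time 3 were called higher in untreated (3.08%) and 1 in butyrate colonoids (6.63%). Under total counts and non-mitochondrial totals, 3 were called lower at 72 h in place of 4, without mt-Atp6 (-0.283 and -0.319), and under total counts 5 were called higher over time with butyrate in place of 6. Of 364 recomputed values of single genes, 3 changed sign: mt-Nd1 with butyrate at 72 h (0.005 in place of -0.047) and mt-Co3 over time with butyrate (-0.013 in place of 0.019), both under total counts, and mt-Co2 with butyrate at 48 h (-0.0001 in place of 0.012) under non-mitochondrial totals. Of 160 recomputed list medians, 6 left their interval, all under total counts: epithelium for butyrate at 72 h (-0.106), and, in untreated colonoids over time, epithelium (0.023), proliferation (-0.145), other mitochondrial proteins (-0.100), stress response (-0.019) and nuclear complex III (-0.137). Total count scaling moved the median of all genes by less than 0.1.

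The log2 changes and calls with copies, and the alternative without mt-Cytb, were added once the data had been seen. The mitochondrial shares with copies were not among these additions. The labels give no replicate numbers to pair libraries by, and with 1 library a condition none could be left out. Pairing the libraries by time, a fit of treatment and time without their interaction that leaves 1 residual degree of freedom, was not run. Among the 13 genes mt-Nd6 had the fewest counts (248 to 660) and the widest intervals, and the spread between cultures is unknown.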
